A study of Mus musculus with 21 samples.

Results

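The cytokines and growth factors of glia described here are 10 genes chosen by name from the expression table: Il1a, Il1b, Tnf, Il18, Il33, Il34, Csf1, Tgfb1, Tgfb2 and Tgfb3. Of these 10, 8 were among the 16318 genes of the table, and all 8 passed the low-count filter together with 16303 genes in all; Il1b and Tnf were not analysed here. RNA from the whole brain of 21 SAMP8 mice, a senescence-accelerated strain used as a model of age-related cognitive decline, was sequenced with 1 library per mouse. HsTX1[R14A] is a scorpion toxin analogue that blocks the voltage-gated potassium channel Kv1.3, which is found on microglia and T cells. The study states that some neurons, astrocytes, oligodendrocytes and neural progenitor cells express this channel too. Dosing began at 4 months of age and went on for 8 weeks, so that the brains were taken at 6 months. The PBS group held 6 female and 6 male SAMP8 mice given the phosphate-buffered saline vehicle. The HsTX1[R14A] group held 3 female and 6 male SAMP8 mice given 1 mg/kg subcutaneously every other day. No strain without accelerated senescence entered any comparison, so all groups share the SAMP8 background. Each value is a level in whole brain: fewer cells of a type and less RNA per cell cannot be told apart.

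Glial cells and neurons exchange these proteins to set the state of the tissue. IL-1α, IL-18 and IL-33 belong to the IL-1 family, of which IL-1α and IL-33 act as alarmins released from damaged or stressed cells, while IL-18 is matured by caspase-1 in the inflammasome; in the mouse brain IL-33 is made mainly by oligodendrocytes and astrocytes. CSF-1, from glia, and IL-34, largely from neurons, are the ligands of CSF1R, the receptor on which microglia depend for survival. The TGF-β ligands are secreted in a latent form, are freed by integrins, and hold microglia in their resting programme.

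The genes that fell were the 3 IL-1 family ligands, and their promoters are shown so that the start regions of the genes called can be compared. Each run is the 250 bases before a RefSeq start site (GRCm38.p6), written 5′ to 3′ along the strand of the gene. Capitals mark a match on either strand to TATAAA or to TGANTCA, the AP-1 motif; the NF-κB motif was searched as well and no match to it lay in these 4 runs.
Il1a, chr2:129309973-129310222, minus strand: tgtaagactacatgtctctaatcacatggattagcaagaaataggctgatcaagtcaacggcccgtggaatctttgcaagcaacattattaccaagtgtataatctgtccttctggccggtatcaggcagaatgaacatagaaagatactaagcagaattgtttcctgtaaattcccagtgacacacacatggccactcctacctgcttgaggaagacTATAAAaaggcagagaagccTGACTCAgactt
Il18, chr9:50554450-50554699, plus strand: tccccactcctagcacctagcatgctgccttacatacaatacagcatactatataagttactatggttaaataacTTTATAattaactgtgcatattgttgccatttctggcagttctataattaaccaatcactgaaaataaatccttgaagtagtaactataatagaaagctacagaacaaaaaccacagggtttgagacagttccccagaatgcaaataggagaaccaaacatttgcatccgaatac
Il33, upstream start, chr19:29924863-29925112, plus strand: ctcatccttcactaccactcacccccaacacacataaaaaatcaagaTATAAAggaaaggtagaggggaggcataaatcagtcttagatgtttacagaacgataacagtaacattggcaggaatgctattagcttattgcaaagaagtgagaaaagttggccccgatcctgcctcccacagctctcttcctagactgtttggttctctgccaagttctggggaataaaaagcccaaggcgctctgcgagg
Il33, downstream start, chr19:29945540-29945789, plus strand: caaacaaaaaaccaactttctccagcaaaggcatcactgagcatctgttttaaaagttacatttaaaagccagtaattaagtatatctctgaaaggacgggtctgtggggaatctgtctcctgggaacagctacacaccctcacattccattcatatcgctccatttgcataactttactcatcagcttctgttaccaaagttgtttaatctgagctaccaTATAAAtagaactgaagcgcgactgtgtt
The TATAAA match began 32 bases before the Il1a start and 29 bases before the downstream Il33 start, and lay 175 and 203 bases before the Il18 and the upstream Il33 start. The AP-1 match of Il1a began 12 bases before its start. Among 32851 RefSeq promoters of the same length, 12.4% held a TATAAA match, 6.75% an AP-1 match and 7.25% an NF-κB match. The windows of Csf1 and Tgfb1 each held 1 NF-κB match and that of Tgfb2 1 TATAAA match. A match is a run of letters and not a measured site. The counts were made per gene, so the 2 starts of Il33 were not separated. Il34 and Tgfb3 are named only.

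Across the 8 genes, 3 fell in the HsTX1[R14A] mice (Il1a, Il18 and Il33), 0 rose and 5 did not pass the test. The share called was 37.5%, beside 31.6% of all 16303 genes (5144 genes; 2526, or 15.5%, higher and 2618, or 16.1%, lower; edgeR quasi-likelihood test with sex as a term, Benjamini-Hochberg adjusted p at most 0.05). The share of these genes called is therefore close to that of the table as a whole. All 3 calls were lost when the transcript length slope of each library, described below, was a covariate. The median log2 fold change over the 8 genes was -0.02, beside -0.01 over all genes. Grouped by role, the 3 IL-1 family genes had log2 fold changes between -0.54 and -0.46, the 2 CSF1R ligands 0.19 and 0.38, and the 3 TGF-β ligands between -0.05 and 0.26.

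**Figure D1:**
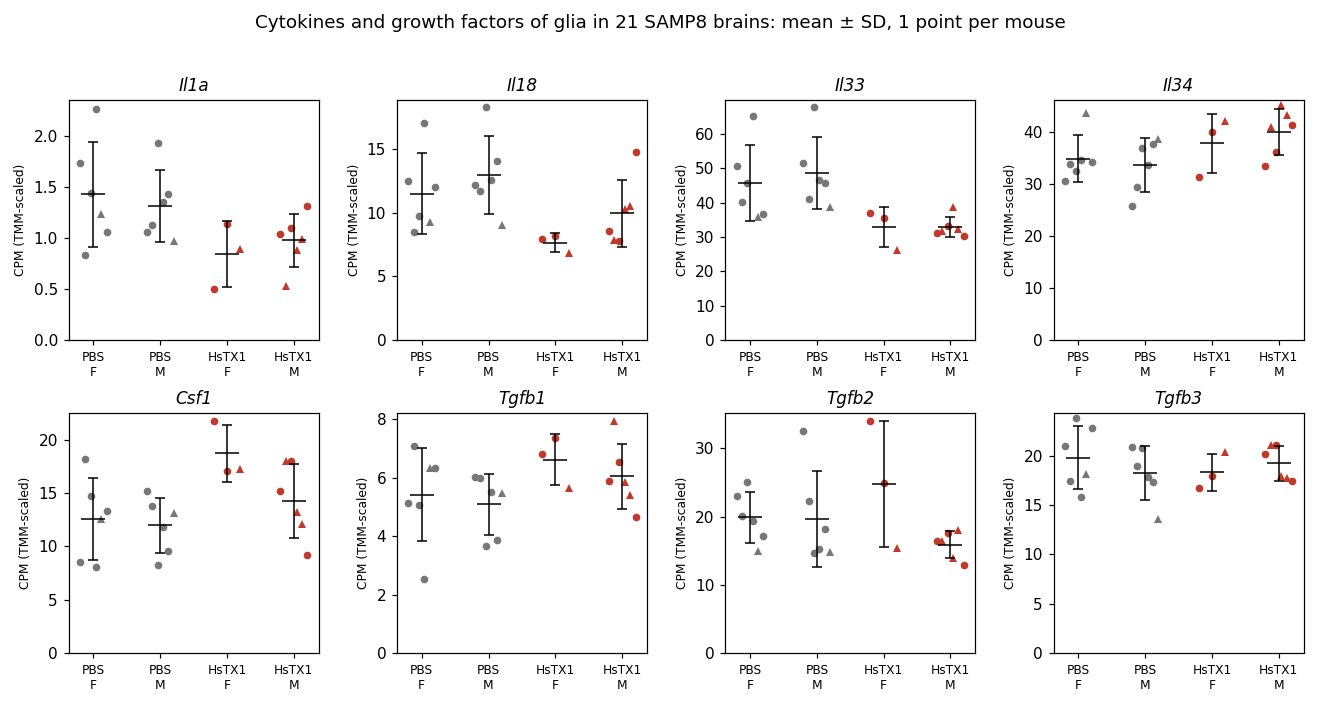
Level of each of the 8 genes in CPM (counts scaled to TMM library size; vertical axis from 0) by group (F, female; M, male). Each point is 1 mouse, grey for PBS and red for HsTX1[R14A]; triangles are libraries of the rarer name form, circles those of the more common form, and black marks give the mean ± SD. For Il33, 7 of the 9 HsTX1[R14A] mice lie below the lowest PBS mouse, at 35.9 CPM.

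Levels are given as CPM, counts scaled to the library size after TMM normalization. Totals of estimated counts ran from 14917171 to 36207536 in the PBS libraries and from 17552394 to 47613770 in the HsTX1[R14A] libraries. In the count table, library names come in 2 forms, a more common one (10 PBS and 5 HsTX1[R14A] mice) and a rarer one (2 and 4 mice), and what the forms stand for is not given in the sources used here. The libraries also differed in how levels depend on transcript length. The length slope, the regression of the centred log2 CPM of each gene on the log2 length of its longest transcript, was -0.0764 ± 0.161 (SD, n = 12) in PBS and 0.102 ± 0.119 (SD, n = 9) in HsTX1[R14A] mice. It ranged from -0.384 to 0.147 and from -0.142 to 0.234, so the groups overlapped but were shifted, and PBS female 103 and PBS male 90 stood lowest. Over all genes, the median log2 fold change went from -0.45 for transcripts up to 1000 bases to 0.27 for those above 6000 bases. The part of the length slope in the differences below was not tested beyond the values given beside them.

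Il33 (chr19:29925114-29960718, plus strand, GRCm38 with GENCODE M21 as for all gene positions here), the alarmin of oligodendrocytes and astrocytes, showed the smallest p of the 8 genes and ranked 130 of 16303. The 12 PBS mice spanned 35.9 to 67.8 CPM with a median of 45.7, and the HsTX1[R14A] males 30.3 to 38.6 with a median of 32.0. The 3 HsTX1[R14A] females had 26.2, 37.0 and 35.4 CPM. No HsTX1[R14A] mouse reached the PBS median, and only female 71 and male 89 were above the lowest PBS mouse. The mean was 47.1 ± 10.4 CPM (SD, n = 12) in PBS and 32.9 ± 3.76 (SD, n = 9) in HsTX1[R14A] mice. The log2 fold change was -0.53 (SE 0.11, 95% interval -0.75 to -0.31, edgeR adjusted p = 0.0151), or 0.694 times the PBS level. An exact permutation of treatment within sex gave p = 0.000206 (two-sided, 77616 assignments). The log2 fold change was -0.47 (SE 0.21) in females and -0.56 (SE 0.13) in males, and the male value minus the female value was -0.09 (95% interval -0.55 to 0.37).

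Il18 (chr9:50554827-50581840, plus strand), the inflammasome-dependent cytokine, spanned 8.50 to 18.3 CPM in PBS mice (median 12.1) and 6.81 to 14.8 CPM in HsTX1[R14A] mice (median 8.18). The 3 HsTX1[R14A] females had 6.81, 7.94 and 8.18 CPM, all under the lowest PBS mouse, PBS female 84. Among the males, HsTX1[R14A] male 93, at 14.8 CPM, was the only treated mouse above the PBS median, and 5 of the 9 treated mice lay below the lowest PBS mouse. The mean was 12.2 ± 3.07 CPM (SD, n = 12) against 9.20 ± 2.43 (SD, n = 9), and the log2 fold change -0.46 (SE 0.14, 95% interval -0.74 to -0.18, edgeR adjusted p = 0.026). The exact permutation within sex gave p = 0.00703.

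Il1a (chr2:129299610-129309972, minus strand), the IL-1 ligand that microglia release to act on astrocytes and endothelium, was the rarest of the genes, with 9 to 56 counts per library. Counting error alone was 33.3% at 9 counts and 13.4% at 56. PBS mice spanned 0.835 to 2.27 CPM (median 1.30) and HsTX1[R14A] mice 0.504 to 1.32 CPM (median 0.993), with females at 0.890, 0.504 and 1.14. The ranges overlapped widely, with 2 of 9 treated mice under the lowest PBS mouse and 1 above the PBS median. The mean was 1.37 ± 0.426 CPM (SD, n = 12) against 0.932 ± 0.269 (SD, n = 9). The log2 fold change was -0.54 (SE 0.20, 95% interval -0.93 to -0.15, edgeR adjusted p = 0.044), and the exact permutation within sex gave p = 0.0109.

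Csf1 (chr3:107741048-107760469, minus strand), the glial ligand of CSF1R, did not pass the test. PBS mice spanned 8.09 to 18.2 CPM (median 12.8) and HsTX1[R14A] mice 9.21 to 21.8 CPM (median 17.1), with females at 17.3, 21.8 and 17.1. In all, 7 of 9 treated mice were above the PBS median, and female 71 alone was above the highest PBS mouse. Treated mice had a log2 fold change of 0.38 (SE 0.15, 95% interval 0.09 to 0.68, edgeR adjusted p = 0.0548), with an exact permutation p = 0.0281 within sex. The adjusted p was 0.0487 with limma-voom, 0.0365 with DESeq2 and 0.0496 with edgeR after RLE scaling, where 31.9%, 37.7% and 32.3% of all genes passed, so the call depended on the tool.

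Il34 (chr8:110741829-110805924, minus strand), the neuronal ligand of the same receptor, spanned 25.7 to 43.7 CPM in PBS mice (median 34.0) and 31.4 to 45.2 CPM in HsTX1[R14A] mice (median 41.0), with females at 42.2, 31.4 and 40.0. The ranges overlapped, with 7 of 9 treated mice above the PBS median and male 89 alone above the highest PBS mouse. The log2 fold change was 0.19 (SE 0.09, 95% interval 0.02 to 0.36, edgeR adjusted p = 0.085), with an exact permutation p = 0.0366. Both PBS libraries of the rarer name form, female 104 at 43.7 and male 102 at 38.7 CPM, were above all other PBS mice. With name form as a covariate the log2 fold change was 0.12 (edgeR adjusted p = 0.205).

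Tgfb1 (chr7:25687002-25705077, plus strand), the TGF-β ligand of microglia, spanned 2.55 to 7.09 CPM in PBS mice (median 5.49) and 4.65 to 7.94 CPM in HsTX1[R14A] mice (median 5.88), with females at 5.65, 6.82 and 7.37. Of the 9 treated mice, 7 were above the PBS median and 2 above the highest PBS mouse. The log2 fold change was 0.26 (SE 0.14, 95% interval -0.02 to 0.54, edgeR adjusted p = 0.154). Tgfb3 (chr12:86056745-86079041, minus strand), the third ligand, spanned 13.6 to 23.8 CPM in PBS (median 18.5) and 16.7 to 21.1 CPM in treated mice (median 17.9). All treated mice lay inside the PBS range, and the 95% interval of the log2 fold change ran from -0.17 to 0.18 (edgeR adjusted p = 0.982).

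Tgfb2 (chr1:186622792-186705989, minus strand), the ligand of astrocytes and neurons, had a log2 fold change of -0.05 (95% interval -0.37 to 0.27, edgeR adjusted p = 0.843). The 6 HsTX1[R14A] males spanned only 12.9 to 18.1 CPM, and the 3 females had 15.4, 34.0 and 25.0 CPM. PBS females spanned 14.9 to 25.1 CPM and PBS males 14.6 to 32.6. Within females the log2 fold change was 0.32 (SE 0.23) and within males -0.30 (SE 0.19). Their difference was -0.62 (SE 0.31, 95% interval -1.23 to 0.00, edgeR adjusted p = 1). For treatment by sex, 0 of 16303 genes passed the edgeR test (0%), and 270 had an unadjusted p under 0.05.

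**Figure D2:**
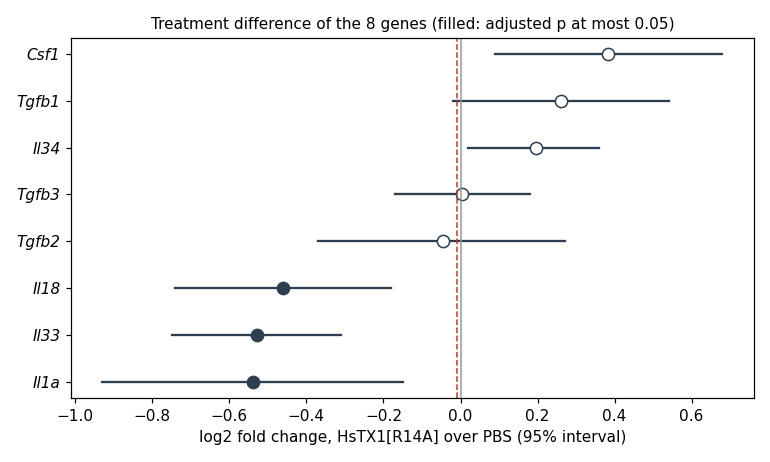
Log2 fold change of the 8 genes, HsTX1[R14A] over PBS (horizontal axis), with 95% intervals as bars; filled circles passed an adjusted p of 0.05 and the dashed line is the median of all genes, -0.01. Il1a, Il33 and Il18 lie left of 0 with intervals that do not reach it, and the intervals of Csf1 and Il34 lie right of 0 although neither passed after adjustment.

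Sex had no called difference in any of the 8 genes (0 of 8, beside 0.0552% of all genes; edgeR adjusted p between 0.447 and 0.99). At an unadjusted edgeR p under 0.05 the count was also 0 of 8, and 1765 of all genes were under it.

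Per kilobase of longest transcript, which sets the genes on a common scale, the order of the mean levels over 21 mice was Il34 at 20.3 ± 2.91 CPM per kb (SD, n = 21), Il33 at 16.1 ± 4.25, Il18 at 12.4 ± 3.55, Tgfb3 at 5.61 ± 0.723, Tgfb2 at 3.79 ± 1.13, Csf1 at 3.29 ± 0.902, Tgfb1 at 2.21 ± 0.494 and Il1a at 0.600 ± 0.214. Il34 was above Il33 in 17 of 21 mice and Il33 above Il18 in 20. Tgfb2 and Csf1 did not differ beyond their spread, with Tgfb2 higher in 13 of 21 mice. These means pool the treatments: Il34 and Il33 averaged 19.1 and 18.5 CPM per kb in PBS mice and 21.9 and 12.9 in treated mice, and Tgfb2 and Csf1 averaged 3.87 and 2.94 in PBS mice and 3.69 and 3.77 in treated mice. By the median transcript length instead, Il33 (56.6) came before Il34 (54.0) and Tgfb2 (23.6) moved up to the third place.

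Some members varied together. Over 21 mice, 7 of the 21 pairs of genes with at least 10 counts in every mouse (Il1a was left out) passed a permutation test of Pearson's r adjusted over 35 relations. Il18 and Il33 varied in the same direction (r = 0.739, adjusted permutation p = 0.000455, rho = 0.642, 0.539 without the 2 farthest mice), but r was 0.829 within the 12 PBS mice and 0.116 within the 9 treated mice. Csf1 and Tgfb1 were alike (r = 0.821, rho = 0.831, each with a permutation p = 1e-05 that is the smallest possible, adjusted p = 7e-05 for r), with r = 0.816 in PBS mice. Il18 ran against Csf1 (r = -0.885, rho = -0.879, adjusted permutation p = 7e-05), and r was -0.812 in PBS mice and -0.917 within the 15 libraries of the more common name form.

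The genes of these 3 relations also ran with the length slope of the libraries. Il18, whose longest transcript of 885 bases is the shortest of the 8, had r = -0.963 with the slope (rho = -0.969, adjusted permutation p = 7e-05, -0.951 without the 2 farthest mice, -0.943 within PBS). Csf1, of 4176 bases, had r = 0.929 (rho = 0.887, adjusted permutation p = 7e-05, 0.916 within PBS) and Tgfb1, of 2573 bases, had r = 0.877 (rho = 0.739, adjusted permutation p = 7e-05). For Il34 (r = 0.148), Tgfb2 (r = 0.198) and Tgfb3 (r = 0.186) the relation did not pass (adjusted permutation p = 0.643, 0.573 and 0.585). For Il33 r was -0.845 within PBS mice and -0.0926 within the treated mice, a difference that was not tested. Among the treated mice male 93 had the lowest slope, -0.142, with the next at 0.0166. The treated r of Il33 without male 93 was not computed. Over all 21 mice the r of Il33 was -0.777 (rho = -0.687, adjusted permutation p = 0.000306, -0.56 without the 2 farthest).

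**Figure D3:**
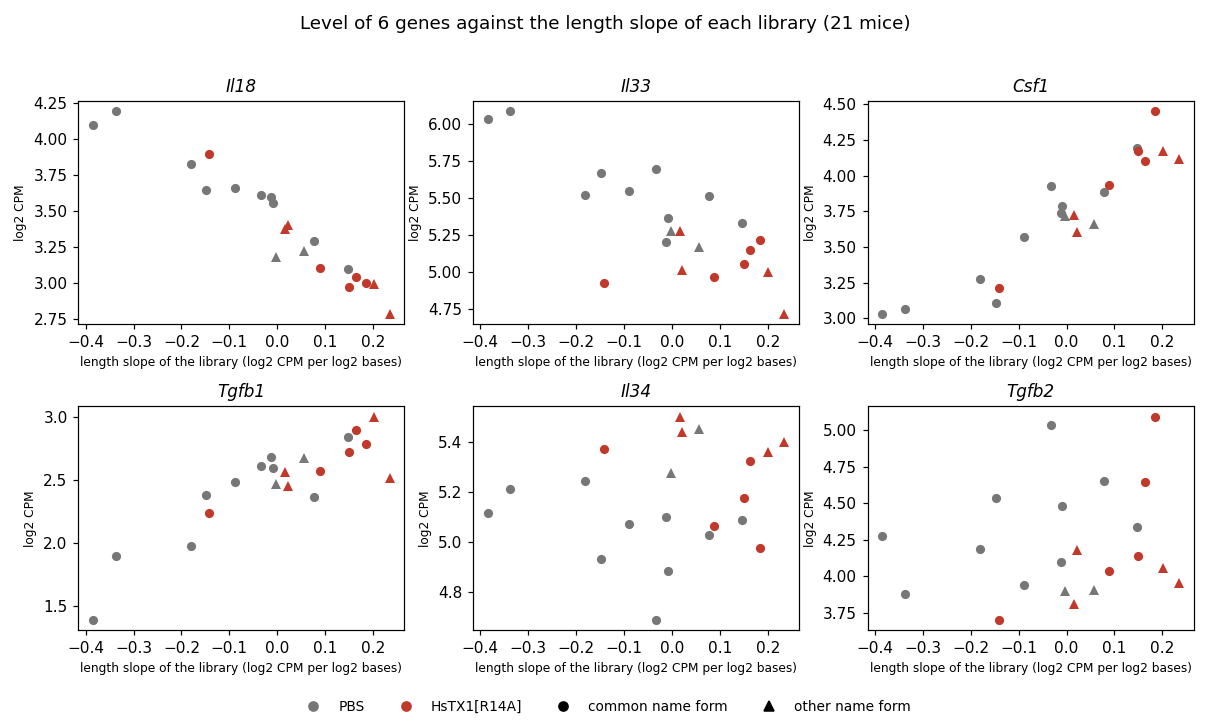
Log2 CPM of 6 genes (vertical axis) against the length slope of each library (horizontal axis, log2 CPM per log2 bases); grey is PBS, red is HsTX1[R14A] and triangles are the rarer name form. Il18 falls along the slope (r = -0.963) and Csf1 climbs (r = 0.929) over the mice of both treatments. For Il33 r is -0.0926 within the 9 treated mice. Male 93, at a slope of -0.142 and 30.3 CPM, stands apart among these, as the next lowest treated slope is 0.0166. The r of Il33 without male 93 was not computed.

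Set beside all genes of like transcript length, the 3 genes that fell differed. The 987 genes of up to 1000 bases had a median log2 fold change of -0.45, and 48.9% of them lay below Il18 at -0.46. The 2738 genes of 1000 to 2000 bases had a median of -0.21, and 11.4% lay below Il1a. The 3388 genes of 2000 to 3000 bases had a median of -0.08, and 6.14% lay below Il33. All lengths here are those of the longest transcript, 2544 bases for Il33. The median length of the 5 Il33 transcripts was 725 bases, and genes were not grouped by median length. With the length slope as a covariate, no gene of 16303 passed the edgeR test (0%, 1865 had an unadjusted p under 0.05), and the log2 fold changes were -0.26 for Il33, -0.06 for Il1a and -0.03 for Il18 (adjusted p = 0.349, 0.92 and 0.909). The slope itself was shifted between the treatments, and what they share cannot be told apart in this fit.

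Il34 and Tgfb2 ran against each other (r = -0.705, rho = -0.662, adjusted permutation p = 0.000891, -0.57 without the 2 farthest mice). The r was -0.853 within PBS mice, -0.624 within treated mice and -0.644 within the more common name form. Neither gene had passed in its relation with the length slope. In the libraries of the rarer name form, Il34 spanned 38.7 to 45.2 CPM, where the median of all mice was 36.1. Tgfb2 spanned 14 to 18.1 CPM in these libraries, where all mice spanned 12.9 to 34 with a median of 17.6. The part of name form in this relation was not tested beyond the r within the more common form.

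Genes whose levels ran most like each member over the 21 mice were ranked by Pearson's r among 13302 genes, as a description. These r pool the treatments, so a shift shared between the groups enters them, and r within each treatment was not computed. For Il33 the first 3 were Pllp (0.951), Mog (0.938) and Bcas1 (0.925), all genes of myelinating oligodendrocytes. For Il18 they were Arl3 (0.971), Rps15 (0.970) and Apoo (0.970), and for Csf1 Smg6 (0.971), Grin2d (0.963) and Vwa8 (0.962). Tgfb1 was most like Wdtc1 (0.957), Diap1 (0.957) and Zmiz2 (0.953). For Tgfb2 the likeness was lower, with Nrp1 (0.861), Tshz2 (0.850) and C1ql2 (0.827), and for Il34 it was Tarsl2 (0.872), Prkacb (0.862) and Stk32c (0.861). Il1a came closest to Gm28048 (0.905), Plgrkt (0.893) and Pex10 (0.889), and Tgfb3 to Gm13301 (0.743), Cacng7 (0.739) and Trp53inp2 (0.736).

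Cell type markers are set beside the 31.6% of all genes called (15.5% higher and 16.1% lower). Of 9 oligodendrocyte markers, 5 fell and 0 rose (55.6% called, median log2 fold change -0.40), among them Opalin (-0.99, edgeR adjusted p = 0.0145) and Mobp (-0.67, adjusted p = 0.0145), and their summed CPM ranged from 4470 to 6860 in PBS and from 3400 to 5000 in treated mice. Of 15 microglia markers, 6 fell and 0 rose (40% called, median -0.28), led by P2ry12 (-0.65) and C1qb (-0.43), both with edgeR adjusted p = 0.0151. The log2 fold changes of the 15 ran from -0.69 to 0.49. Their median longest transcript was 2273 bases, against 3283.5 over all genes. Of the 3388 genes of 2000 to 3000 bases, 19.5% were called lower. The microglia sums ranged from 476 to 716 CPM in PBS and from 387 to 581 CPM in treated mice. Of 11 astrocyte markers 4 fell, among them S100b (-0.72) and Gfap (-0.59), and 1 rose, Fgfr3 (0.32). The share called was 45.5% with a median of only -0.08, and the sums were 3470 to 5190 and 3470 to 5230 CPM. Of 5 border macrophage markers 3 fell (60% called, Mrc1 -0.78, F13a1 -0.68), with sums of 5.42 to 15.7 and 3.14 to 8.69 CPM. Of 8 endothelial markers 1 rose (12.5% called, Flt1, 0.64), and of 10 neuron markers 1 rose (10% called, Syt1, 0.31), both shares below that of all genes. None of 6 choroid plexus, 5 meningeal fibroblast and 5 red blood cell genes passed, and of 5 blood leukocyte markers only 1 was tested and did not pass. Choroid plexus sums had a median of 794 CPM in PBS and 511 CPM in treated mice, from lows of 67.7 and 58.2. Meningeal fibroblast sums spanned 25.8 to 88.8 and 20.3 to 86.6, and red blood cell sums 5.82 to 157 and 15.1 to 87.6. Endothelial sums spanned 73.2 to 136 and 87.3 to 153, neuron sums 6040 to 8730 and 7010 to 10000. Markers of neurons and of all 3 glial classes were thus well above 0 in every library, as the label of whole brain states. What part the markers have in the values of the members was not tested beyond the fit given next.

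The microglia marker score ran with Il18 (r = 0.782, rho = 0.762, adjusted permutation p = 0.00025, 0.662 within PBS and 0.741 within treated mice) and with Il33 (r = 0.667, rho = 0.629, adjusted permutation p = 0.00295, 0.567 within PBS and 0.327 within treated mice). It ran against Csf1 (r = -0.759, rho = -0.736, adjusted permutation p = 0.000428, -0.606 within PBS) and Tgfb1 (r = -0.5, adjusted permutation p = 0.0451, -0.382 within PBS), where rho was -0.434 and did not pass (adjusted permutation p = 0.118). Il18, Il33, Csf1 and Tgfb1 also ran with the length slope, as given above. The microglia score was highest in PBS male 90 (0.31, slope -0.337) and lowest in HsTX1[R14A] female 71 (-0.40, slope 0.184). PBS male 101, at a slope of -0.181, had a score of -0.061. How the microglia score relates to the slope, and the part of the slope in these relations, was not tested. With the oligodendrocyte marker score as a covariate the log2 fold change of Il33 was -0.12 (edgeR adjusted p = 0.63), that of Il18 -0.40 and of Il1a -0.41 (adjusted p = 0.548 and 0.557). No gene in the table passed the edgeR test in that fit (0%, 1188 had an unadjusted p under 0.05), and the score itself was lower in the treated mice. This fit was chosen after seeing the data.

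**Figure D4:**
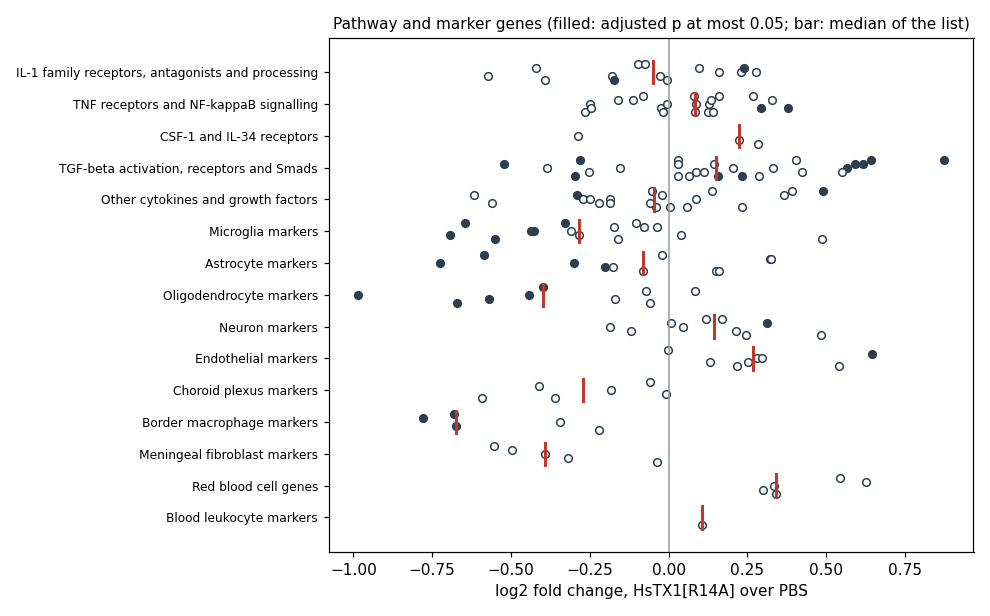
Log2 fold change of single genes, HsTX1[R14A] over PBS, in pathway and marker lists (rows); filled circles passed an adjusted p of 0.05 and red bars give list medians. The oligodendrocyte median, -0.40, and the microglia median, -0.28, lie left of 0 and that of the TGF-β pathway, 0.15, lies right of it.

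Among the partners of the IL-1 family ligands, 14 of 19 listed genes were tested, and 1 rose and 1 fell (14.3% called, below the 31.6% of all genes, median -0.05). Traf6, the ubiquitin ligase downstream of these receptors, rose by 0.24 (edgeR adjusted p = 0.0305), and Irak1, the receptor kinase, fell by 0.17 on the log2 scale (adjusted p = 0.0399). Il1r1, the signalling receptor of IL-1, had a log2 fold change of -0.42 (SE 0.19, adjusted p = 0.086), and the accessory protein Il1rap had -0.10 (adjusted p = 0.453). Il18bp, the decoy receptor of IL-18, had 0.23 (adjusted p = 0.349). Casp1, which matures IL-18, had -0.39 (adjusted p = 0.055) and was chosen after its value was seen.

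Of 21 TNF receptor and NF-κB genes, 2 rose and 0 fell (9.52% called, below the 31.6% of all genes, median 0.09). They were Tnfaip3, the A20 inhibitor of NF-κB, at 0.38 (edgeR adjusted p = 0.0276) and Ikbkb, an IκB kinase, at 0.29 (adjusted p = 0.033). Tnfrsf1a, the main TNF receptor, had 0.13 (adjusted p = 0.498).

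The receptors of CSF-1 and IL-34 did not pass the test (0 of 3, median 0.22). Csf1r averaged 57.6 ± 15.6 CPM (SD, n = 12) in PBS and 69.1 ± 10.9 (SD, n = 9) in treated mice, a log2 fold change of 0.28 (SE 0.15, edgeR adjusted p = 0.134). Ptprz1, the second IL-34 receptor, had 0.22 (SE 0.09, adjusted p = 0.0665) and Sdc1 -0.29 (adjusted p = 0.306).

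Of 26 TGF-β partners tested, 10 were called (38.5%, near the 31.6% of all genes), 7 higher and 3 lower, with a median of 0.15. Higher were the latent TGF-β binding proteins Ltbp4 (0.87, edgeR adjusted p = 0.0257) and Ltbp3 (0.61), the protease Furin that cleaves the precursors (0.59), the co-receptor Eng (0.56), Smad3 (0.64) and Smad4 (0.15), the signal transducers, and Zfyve9, the Smad anchor (0.23). Lower were the type I receptor Tgfbr1 (-0.28, adjusted p = 0.0154), the integrin subunit Itgb8 that frees latent ligand (-0.30, adjusted p = 0.0204) and the repressor Tgif2 (-0.52, adjusted p = 0.0208). Tgfbr2, the type II receptor, had 0.06 (adjusted p = 0.722). The median longest transcript of this list was 5471 bases, against 3283.5 over all genes, and the 3694 genes of 4000 to 6000 bases had a median log2 fold change of 0.11.

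Of 29 other cytokines and growth factors, 20 were tested, with 1 higher and 1 lower (10% called, below the 31.6% of all genes, median -0.05). Pdgfb, the endothelial ligand of pericytes, had 0.49 (edgeR adjusted p = 0.023), and Fgf2, the astrocytic growth factor, had -0.29 (adjusted p = 0.0378). Kcna3, the gene of the blocked channel, averaged a log2 CPM of 2.23 and had a log2 fold change of 0.53 (SE 0.14, adjusted p = 0.018).

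The calls for the members varied with the libraries and the model. Il33 passed in all 21 fits that left out 1 mouse (edgeR adjusted p 0.00688 to 0.0337) and in 10 of 14 alternatives. Il18 passed in 18 of 21 leave-one-out fits and in 6 of 14 alternatives, and Il1a in 8 of 21 and in 4 of 13. The count of members called was 1 without PBS male 90, without HsTX1[R14A] female 98 and without HsTX1[R14A] male 88. In these fits 14%, 18.4% and 19.1% of all genes passed, beside 31.6% in the fit of all 21 mice. Within the more common name form alone (10 PBS and 5 treated mice) no gene passed the edgeR test (0%, 5797 had an unadjusted p under 0.05), and the log2 fold changes were -0.56 for Il33, -0.48 for Il18 and -0.50 for Il1a (adjusted p = 0.0575, 0.0932 and 0.168). Within the rarer form (2 PBS and 4 treated mice) they were -0.29, -0.12 and -0.34, and no gene passed (0%, 532 with an unadjusted p under 0.05 in edgeR). With name form as a covariate Il33 alone of the members passed (-0.47, edgeR adjusted p = 0.0388), and 12.3% of all genes passed. Without PBS female 103 and PBS male 90, an alternative chosen after seeing the data, Il33 alone of the members passed, at -0.40 (adjusted p = 0.0215), where 17.7% of all genes passed.

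**Figure D5:**
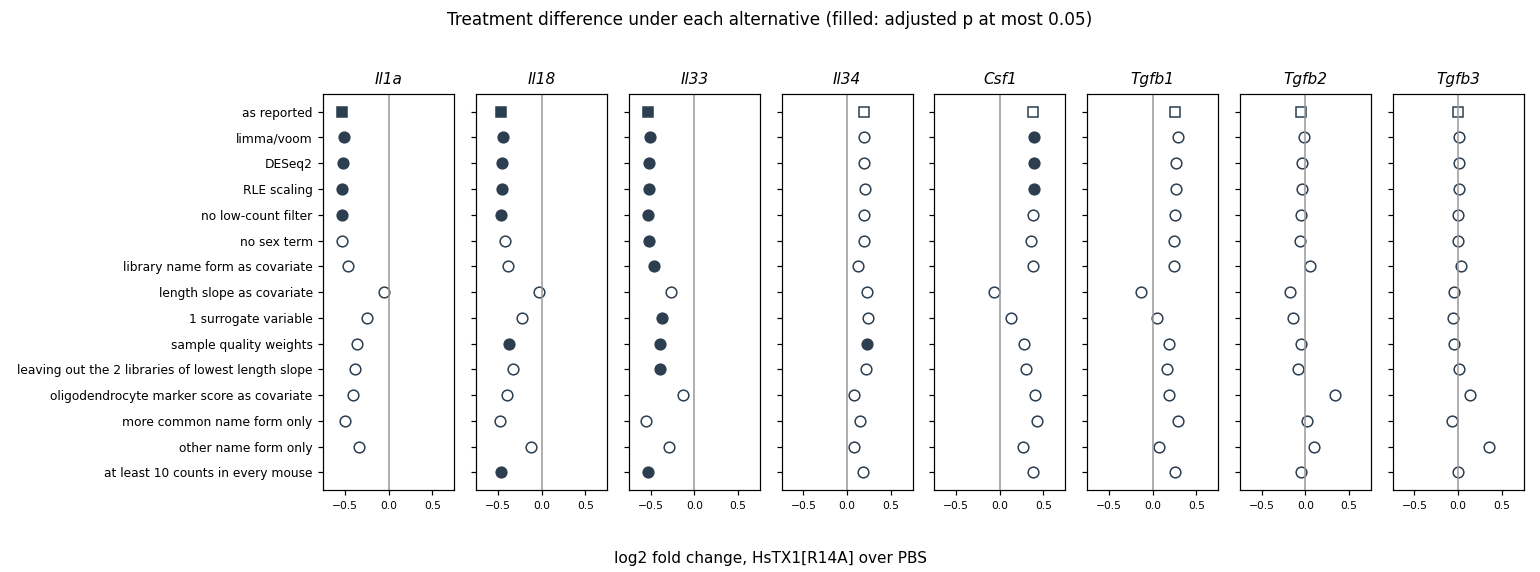
Log2 fold change, HsTX1[R14A] over PBS (horizontal axis of each panel), of the 8 genes under each alternative fit (rows); squares are the values as reported, filled marks passed an adjusted p of 0.05. Il33, Il18 and Il1a stay left of 0 in every fit shown for them. Csf1 and Tgfb1 lie right of 0 except with the length slope as covariate, at -0.07 and -0.13.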

How the data were processed

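Bulk RNA-seq of whole brain was measured in 21 SAMP8 mice. The authors extracted RNA with a lipid tissue kit, aligned reads to GRCm38 with STAR and quantified them with Salmon in the nf-core/rnaseq pipeline (STAR and Salmon versions are not given in the sources used here), and deposited estimated counts per gene, the expected counts used here; 90.5% lie within 0.01 of a whole number. The study's methods name a directional (stranded) library kit and the labels another kit. Whether counting used strand is not stated, so reads of antisense genes that overlap Il1a, Il34, Tgfb2 and Tgfb3 cannot be told apart. The same limit holds for some pathway genes called. Among them Tgif2 shared 2171 exonic bases with a gene on the other strand, Zfyve9 706 and Fgf2 640. Unused were 37 columns of CPM values and 16 count columns from libraries outside the 21 mice, 53 together, as well as the fold changes and p-values of the authors' own comparisons.

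Counts were rounded and scaled by TMM, genes were kept by filterByExpr (16303 of 16318), and edgeR 4.0.16 quasi-likelihood tests were fitted over all genes with treatment and sex, in R 4.3.3. The call threshold was a Benjamini-Hochberg adjusted p of 0.05. For each member, treatment was also permuted exactly within sex on log2 CPM (prior count 2). Correlations used 100000 permutations in Python with numpy 2.4.6. Transcript lengths came from GENCODE M21 on the build of the files (99.5% of tested genes). The steps were tested on simulated data. For the edgeR fit 200 of 16298 genes were changed 2-fold, and 176 were recovered with 8 false calls. The simulated counts held no length slope and no name form, so they do not bear on the part of these in the calls. limma 3.58.1, DESeq2 1.42.0 and sva 3.50.0 gave alternatives, as did other filters, covariates, name form and leaving out each mouse.

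Named genes were all members, the 2 genes of smallest p in each list, single receptors, Kcna3, and the 3 genes most like each member. The remaining TGF-β genes called, Casp1 and Fgfr3 were named after their values were seen. The members and lists were chosen with earlier results of these data known. Each mouse is 1 library, and the tests of treatment and sex set differences against the variation between mice. The correlation p-values came from permuting the pooled mice, so a shift between the treatments enters them. Totals per library were 14917171 to 47613770.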

Additional observations from a re-analysis of the deposited data

Results flagged for a closer look

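A check for mice far from the rest of their group, made in 32 combinations of gene and group with Dixon's 95% critical values, flagged 3 values; chance flags about 1 in 20 groups by the construction of that test, and the groups overlap, since treated males are also counted among all treated mice. Il18 in HsTX1[R14A] male 93 was 14.8 CPM, where the next of the 9 treated mice had 10.5; the gap was 0.537 of the range. The length slope of this library, -0.142, was also the lowest of the treated mice. Il33 in HsTX1[R14A] male 89 was 38.6 CPM against 33.2 for the next of the 6 treated males, a gap of 0.653 of the range. Il34 in PBS female 104 was 43.7 CPM against 34.6 for the next of the 6 PBS females, a gap of 0.687 of the range, and this library has the rarer name form. What part library name form and slope have in these values was not tested.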

How the results depend on the processing

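The fall of Il33 kept its direction under all 14 alternatives and in all 21 leave-one-out fits. The direction also held for Il18 and Il34 in the same fits, and for Il1a in 13 alternatives and 21 leave-one-out fits. Against 3 members called as reported, the count was 1 with no sex term, with name form as a covariate, with 1 surrogate variable and without the 2 libraries of lowest length slope, and 0 with the length slope or the oligodendrocyte marker score as a covariate and within either name form alone. Pathway genes called, 16 as reported, numbered 7 with no sex term, 3 with name form, 0 with the length slope, 5 with 1 surrogate variable, 10 without the 2 libraries, and 0 with the oligodendrocyte score and within either form. Marker genes called, 21 as reported, numbered 10 with name form, 0 with the length slope, 12 with 1 surrogate variable, 12 without the 2 libraries, and 0 with the oligodendrocyte score and within either form. Leaving out 1 mouse at a time gave 1 to 4 members, 6 to 24 pathway genes and 12 to 29 marker genes. Of all genes, 31.6% were called as reported, 18.3% with no sex term and 12.3% with name form. The share was 12.9% with 1 surrogate variable and 17.7% without the 2 libraries. It was 0% with the length slope, with the oligodendrocyte score and within either form. Leaving out 1 mouse at a time gave 14% to 40.6% of all genes. The counts of members, pathway genes and marker genes are to be read beside these shares, and the cause of the shifts was not tested.

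Direction changed for genes that had not passed. With the length slope as a covariate, the log2 fold change was -0.065 for Csf1, -0.13 for Tgfb1 and -0.05 for Tgfb3. Tgfb2 changed sign with name form as a covariate (0.059), with the oligodendrocyte score (0.34), within the more common form (0.015) and within the rarer form (0.098), and ranged from -0.2 to 0.086 when 1 mouse was left out. Tgfb3 changed sign with at least 10 counts (-0.004), with no sex term (-0.005), with 1 surrogate variable (-0.057), with quality weights (-0.05) and within the more common form (-0.074), and ranged from -0.043 to 0.029 when 1 mouse was left out. For sex, 37 of 271 alternative values of single genes had the other sign and 0 passed. Per kilobase by median transcript length, levels moved for Il33 (56.6), Il34 (54.0), Csf1 (6.56), Tgfb1 (8.10) and Tgfb2 (23.6). Il1a could not be tested with at least 10 counts in every mouse. No paired analysis was possible because each mouse number occurs in 1 group only. Depth limits Il1a most.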
